A study of Homo sapiens with 30 samples.

Results

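The HOX genes of the human genome were taken as the symbols of the run-on count table that consist of HOX, a cluster letter from A to D and a number. This gave 39 of the 26475 genes of the table: 11 in the HOXA cluster on chromosome 7, 10 in HOXB on chromosome 17, 9 in HOXC on chromosome 12 and 9 in HOXD on chromosome 2. HOX genes encode homeodomain transcription factors that give cells their position along the body axis, and in each cluster the gene order follows the order of expression along that axis, with low numbers towards the head and high numbers towards the tail. Adult mesenchymal cells keep part of this code. Polycomb proteins keep the clusters silent through histone methylation and ubiquitination, Trithorax proteins of the MLL family keep them active, and PBX, MEIS and PREP proteins bind DNA together with the HOX proteins.

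All libraries came from HT1080, a human fibrosarcoma cell line grown from a connective tissue tumour, at passages 10 to 15. Global run-on sequencing (GRO-seq), a run-on assay in which isolated nuclei lengthen the transcripts their polymerases hold while taking up bromouridine, so that the tagged RNA can be captured, was done in 6 groups of 3 libraries: cells labelled hNABP2 KO, hNABP1 KO and WT, each with nucleotides (NTP) and without them (no NTP). ChIP-seq with an antibody to hNABP2 was done in 2 WT libraries, and DRIP-seq, in which RNA:DNA hybrids are pulled down with the S9.6 antibody, in 2 libraries each of hNABP2 KO and WT cells without RNase H. hNABP2 (hSSB1) and hNABP1 (hSSB2) are single-stranded DNA binding proteins of the SOSS complex. How the knockouts were made, and whether each line is 1 clone, is information the sources used here lack. The IgG and RNase H libraries were not analysed here.

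Library size sets what can be said of the HOX genes. With NTP, the libraries of repeats 1 and 2 held 5883 to 19581 counts and those of repeat 3 held 115528 to 164357; without NTP the range was 5272 to 79429. NABP2 itself had 4, 3 and 15 counts across repeats 1 to 3 of hNABP2 KO, 0, 0 and 6 across hNABP1 KO and 4, 0 and 8 across WT. The target gene was thus not lower in the libraries that carry the hNABP2 KO label, and every genotype name used here is a label. NABP1 had 0, 1 and 18 counts across hNABP1 KO, against 1, 0 and 19 across WT. The 12 mesenchymal marker genes took 0.176% to 4.2% of the counts, against 0.0104% to 0.292% for 7 epithelial, 0% to 0.0364% for 6 leukocyte and 0% to 0.0461% for 6 neural markers. The 4.2% came from hNABP1 KO repeat 3 without NTP, where 7 of the 12 genes had a count. In the repeat 3 libraries with NTP, where all 12 had a count, the mesenchymal share was 0.176% to 0.258%. The kit keeps the strand, but the sources used here do not say with which strand setting reads were counted. How far the repeats are independent cultures is not given either, so p-values measure the spread between libraries.

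Promoter sequences of 20 of the 39 genes were matched by symbol in RefSeq (GRCh38.p14), each window running from 250 bases before to 50 bases after an annotated start. 6 windows are shown, because they set promoters with an hNABP2 ChIP peak beside promoters with none: HOXD8 (chr2:176129455-176129754, plus strand), HOXA4 (chr7:27130708-27131007, minus strand), HOXA10 (chr7:27174271-27174570, minus strand) and HOXD13 (chr2:176092471-176092770, plus strand) had a promoter peak in both ChIP repeats, and HOXA2 (chr7:27102634-27102933, minus strand) and HOXD1 (chr2:176188418-176188717, plus strand) had no peak. HOXB8 and HOXD9, also with peaks in both repeats, and HOXB6, HOXB3, HOXC13, HOXB4 and HOXC9, which had more counts than HOXA2 and no peak, had no entry. Capitals mark CG dinucleotides.
HOXD8: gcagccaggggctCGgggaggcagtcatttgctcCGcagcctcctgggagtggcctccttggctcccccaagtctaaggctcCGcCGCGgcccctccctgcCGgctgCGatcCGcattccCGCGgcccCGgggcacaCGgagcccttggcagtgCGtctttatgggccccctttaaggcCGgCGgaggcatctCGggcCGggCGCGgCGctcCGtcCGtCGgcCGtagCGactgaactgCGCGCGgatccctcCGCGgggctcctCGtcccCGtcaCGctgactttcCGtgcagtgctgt
HOXA4: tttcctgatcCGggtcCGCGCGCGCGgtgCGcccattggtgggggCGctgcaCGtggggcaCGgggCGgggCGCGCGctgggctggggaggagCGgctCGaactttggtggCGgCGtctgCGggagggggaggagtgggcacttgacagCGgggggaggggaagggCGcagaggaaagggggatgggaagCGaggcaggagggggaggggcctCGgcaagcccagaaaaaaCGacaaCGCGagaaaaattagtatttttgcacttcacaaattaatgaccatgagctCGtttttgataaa
HOXA10: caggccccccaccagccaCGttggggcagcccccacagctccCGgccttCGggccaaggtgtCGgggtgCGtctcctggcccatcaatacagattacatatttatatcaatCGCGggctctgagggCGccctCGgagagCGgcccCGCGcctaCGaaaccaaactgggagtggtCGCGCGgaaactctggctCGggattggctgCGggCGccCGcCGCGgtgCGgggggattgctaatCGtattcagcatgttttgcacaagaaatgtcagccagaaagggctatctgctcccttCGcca
HOXD13: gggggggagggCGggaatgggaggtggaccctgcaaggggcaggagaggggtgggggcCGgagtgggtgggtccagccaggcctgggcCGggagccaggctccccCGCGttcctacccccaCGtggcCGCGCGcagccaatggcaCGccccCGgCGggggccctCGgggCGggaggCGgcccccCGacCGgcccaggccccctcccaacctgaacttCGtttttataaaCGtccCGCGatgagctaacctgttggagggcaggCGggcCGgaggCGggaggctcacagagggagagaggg
HOXA2: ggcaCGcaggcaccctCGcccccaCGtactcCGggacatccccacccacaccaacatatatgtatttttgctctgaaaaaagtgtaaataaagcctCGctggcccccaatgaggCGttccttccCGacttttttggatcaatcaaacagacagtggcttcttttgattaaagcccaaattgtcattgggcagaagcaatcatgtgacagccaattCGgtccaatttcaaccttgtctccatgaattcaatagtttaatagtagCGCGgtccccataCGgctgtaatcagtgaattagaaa
HOXD1: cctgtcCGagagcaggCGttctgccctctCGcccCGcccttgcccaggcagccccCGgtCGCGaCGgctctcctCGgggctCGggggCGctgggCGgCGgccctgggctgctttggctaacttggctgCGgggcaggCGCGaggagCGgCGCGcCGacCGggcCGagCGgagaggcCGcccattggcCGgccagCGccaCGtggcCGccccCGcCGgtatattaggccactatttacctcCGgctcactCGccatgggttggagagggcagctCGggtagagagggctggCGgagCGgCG
The windows held 34 CG dinucleotides in HOXD8, 27 in HOXA4, 25 in HOXA10 and 24 in HOXD13, against 11 in HOXA2 and 36 in HOXD1. For the comparisons below, the first listed window of each gene was used. For HOXA10 that is chr7:27179812-27180111 with 21 CG, not the window shown. Of the 20 genes with a window, the 7 with a promoter peak in either repeat had a median of 27 CG, and the 13 without one had 15. Among all 16199 genes of the table with a window the medians were 30 and 13, so the HOX genes showed the difference that the whole table showed. The letters TATAAA, searched on both strands with overlapping matches kept, were found in 4 of the 20 HOX genes (20%) and in 9.63% of all genes. HOXD13, whose TATAAA lies close to its start in the sequence above, counted 2 matches because the forward and reverse letters overlap there. The HOX-PBX composite motif TGATTNAT, searched the same way, was found in 2 of the 20 HOX genes (10%), HOXA2 and HOXD11, and in 2.24% of all genes. A match is a description of letters only.

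Run-on signal was found over all clusters but was sparse. With NTP, 38 of the 39 HOX genes had at least 1 count over the 9 libraries; HOXA5 had 0 there and 1 without NTP. The median was 11 counts per HOX gene, against 10 over all genes, and 23 HOX genes (59.0%) had 10 or more counts, against 50.8% of all genes. Of the 484 HOX counts with NTP, 441 (91.1%) lay in the 3 libraries of repeat 3, which held 86.3% of all counts. Repeats 1 and 2 together gave 43 counts, spread over 17 of the genes.

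The HOXD cluster was led by HOXD8, a gene of the middle of the axis and the HOX gene with the most counts. HOXD8 had 1, 1 and 5 counts in repeats 1 to 3 of hNABP2 KO, 0, 0 and 26 in hNABP1 KO and 1, 0 and 16 in WT. The repeat 3 library labelled hNABP1 KO was the highest and the ranges of the 3 groups overlapped. HOXD11, which patterns the forearm and the kidney in the mouse, had 0, 0 and 8 counts in hNABP2 KO, 0, 0 and 3 in hNABP1 KO and 0, 0 and 8 in WT. Like most HOX genes it was seen in repeat 3 alone. The other HOXD genes with enough counts were HOXD9, HOXD3 and HOXD1, 13 counts each. HOXD9 had 0, 0 and 4 counts in hNABP2 KO, 0, 0 and 2 in hNABP1 KO and 0, 0 and 7 in WT. HOXD3, an anterior gene whose span overlaps that of HOXD4, had 0, 0 and 3 counts in hNABP2 KO, 0, 0 and 2 in hNABP1 KO and 0, 0 and 8 in WT. For HOXD1, at the anterior end of the cluster, the counts were 0, 0 and 5 in hNABP2 KO, 0, 0 and 3 in hNABP1 KO and 0, 0 and 5 in WT. All of these lay within overlapping ranges.

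In the HOXA cluster HOXA4, an anterior gene, had the most counts. It had 1, 0 and 7 counts in hNABP2 KO, 0, 0 and 8 in hNABP1 KO and 0, 0 and 22 in WT, with WT repeat 3 the highest library. Every group also held a library at 0, so the ranges overlapped. HOXA13, a gene of the hand, foot and genital tract at the posterior end, had 0, 0 and 10 counts in hNABP2 KO, 0, 0 and 6 in hNABP1 KO and 0, 0 and 5 in WT. HOXA10, which acts in the developing uterus, had 1, 0 and 4 counts in hNABP2 KO, 0, 1 and 3 in hNABP1 KO and 0, 1 and 10 in WT. HOXA9, a blood stem cell gene often active in acute leukaemia, had 0, 0 and 5 counts in each of the 3 groups. Its repeat 3 counts were equal. HOXA2, a hindbrain and branchial arch gene, had 1, 1 and 4 counts in hNABP2 KO, 2, 0 and 1 in hNABP1 KO and 2, 0 and 2 in WT, and was the HOXA gene seen in the most libraries, 7 of 9.

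The HOXB genes were more even among themselves. HOXB6, a trunk gene, had 0, 0 and 5 counts in hNABP2 KO, 0, 0 and 4 in hNABP1 KO and 1, 0 and 13 in WT. HOXB8, known from immortalised myeloid progenitors and microglia in the mouse, had 1, 0 and 4 counts in hNABP2 KO, 0, 0 and 6 in hNABP1 KO and 1, 0 and 10 in WT. Both were highest in WT repeat 3, the deepest library. HOXB3, an anterior gene whose span contains HOXB4, had 2, 1 and 6 counts in hNABP2 KO, 1, 1 and 5 in hNABP1 KO and 3, 0 and 2 in WT. HOXB4, a gene that expands blood stem cells, had 0, 0 and 7 counts in hNABP2 KO, 0, 0 and 3 in hNABP1 KO and 0, 0 and 4 in WT. HOXB3 was the HOX gene seen in the most libraries, 8 of 9. HOXB9, a gene of the thoracic skeleton in the mouse, had 0, 0 and 9 counts in hNABP2 KO, 0, 0 and 6 in hNABP1 KO and 0, 0 and 5 in WT. HOXB2, a hindbrain gene, had 5, 0 and 4 counts in hNABP2 KO, 1, 0 and 2 in hNABP1 KO and 0, 0 and 4 in WT, so that a shallow library held its highest count.

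HOXC was the cluster with the fewest counts, 75 over its 9 genes, against 134 in HOXA, 140 in HOXB and 135 in HOXD. HOXC13, a hair and nail gene, had 0, 0 and 1 counts in hNABP2 KO, 0, 0 and 5 in hNABP1 KO and 0, 1 and 9 in WT. HOXC9, a trunk gene, had 0, 1 and 6 counts in hNABP2 KO, 1, 0 and 1 in hNABP1 KO and 1, 0 and 4 in WT. The 21 HOX genes not given one by one had 0 to 12 counts with NTP. By paralogue number, the 12 genes of groups 1 to 4 held 159 counts (median 13), the 11 of groups 5 to 8 held 132 (median 8) and the 16 of groups 9 to 13 held 193 (median 12.5), so anterior, central and posterior genes were all represented.

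**Figure D1:**
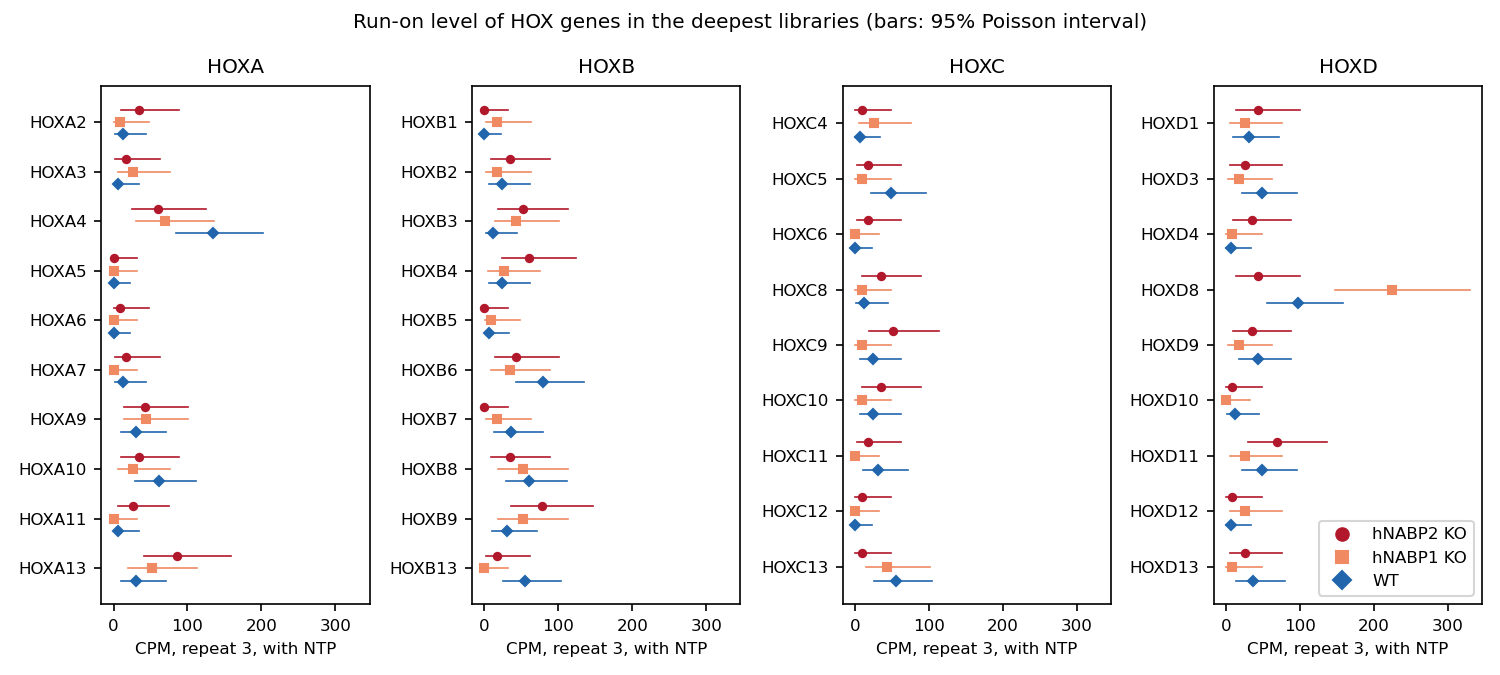
Run-on level of HOX genes in the repeat 3 libraries with NTP (1 gene of the 39 is not drawn), in CPM (counts scaled to the library total) on a linear axis, 1 panel per cluster and genes in order of number; circles are hNABP2 KO, squares hNABP1 KO and diamonds WT, and bars are 95% Poisson intervals of the count. Most intervals overlap; HOXD8 reaches 225 CPM in hNABP1 KO, against 97.3 CPM in WT.

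Set against the length of the gene, HOXA4 and HOXD8 stood above the other HOX genes. Over the 9 libraries with NTP, HOXA4 had 17.0 counts per kb of its RefSeq span (95% Poisson interval 12.1 to 23.4) and HOXD8 had 16.7 (12.4 to 22), 2 levels that do not differ beyond counting error. The next genes were HOXB8 with 7.46 counts per kb (4.67 to 11.3), HOXB2 with 6.52 (3.72 to 10.6) and HOXD9 with 5.86 (3.12 to 10), whose intervals overlap each other and lie below those of HOXA4 and HOXD8. These intervals cover counting error only. 11 HOX genes have spans that overlap another HOX gene, HOXA4 among them, which lies inside the span of HOXA3, and the sources used here do not say how reads in a shared stretch were counted; HOXA3 itself had 8 counts.

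The libraries without NTP, in which no new label should be built in, gave the background. The HOX genes took 0.106% of all counts with NTP (484 of 458478) and 0.0976% without (165 of 169043). Per library, the share was 0.0664%, 0.0608% and 0.115% in repeats 1 to 3 of hNABP2 KO with NTP, against 0.0569%, 0.0476% and 0.113% without; 0.0721%, 0.0265% and 0.0995% in hNABP1 KO with NTP, against 0.0896%, 0.0941% and 0.0964% without; and 0.117%, 0.034% and 0.117% in WT with NTP, against 0.0542%, 0.019% and 0.125% without. The ranges with and without NTP overlapped in each genotype. In hNABP1 KO, repeats 1 and 2 with NTP, on 8 and 2 HOX counts, lay below all libraries without, and repeat 3 lay above them. In repeat 3 the intervals with and without NTP overlapped in each genotype.

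**Figure D2:**
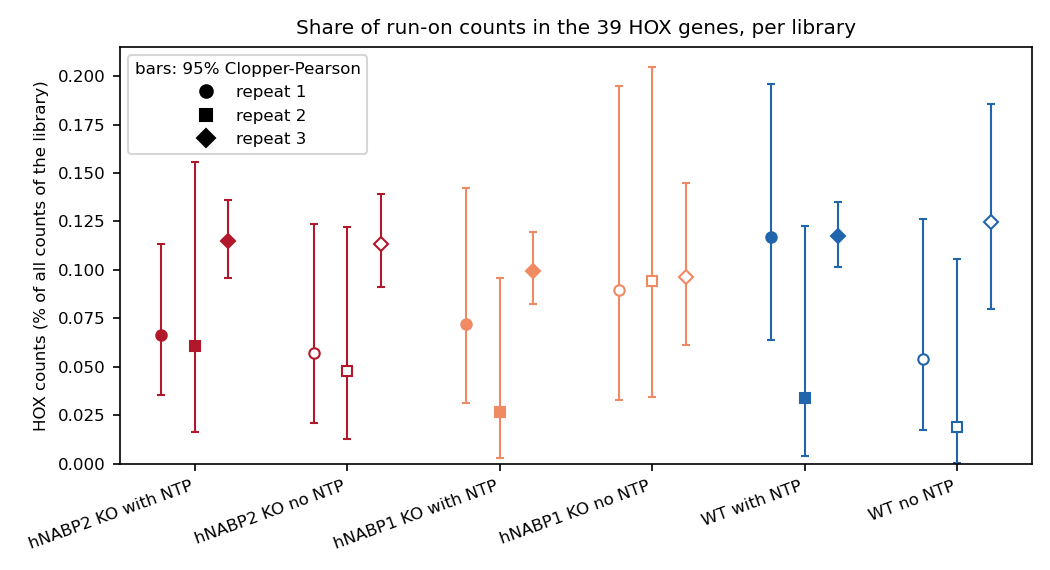
Share of each run-on library's counts that lay in the 39 HOX genes, in percent on a linear axis, for hNABP2 KO, hNABP1 KO and WT, each with NTP (filled) and without (open); symbols tell the repeats apart and bars are 95% Clopper-Pearson intervals of the count. The intervals of nearly all libraries overlap, and repeat 3 libraries lie between 0.0964% and 0.125%.

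Single HOX genes had more or fewer counts with NTP than without. These counts are not scaled, and the libraries held 458478 counts with NTP and 169043 without. HOXB2, HOXA10, HOXB3 and HOXC9 were the 4 HOX genes with more than 10 counts without NTP, chosen here after their values were seen, with 21, 20, 19 and 12 counts. Together they held 14.7% of the HOX counts with NTP (71 counts, 20 of them in repeats 1 and 2) and 43.6% of those without NTP, a share raised by how they were chosen. Among other genes, also picked after seeing the values, HOXA4 had 38 counts with NTP and 4 without, HOXA13 had 21 and 4, HOXD11 had 19 and 0, HOXA9 had 15 and 1 and HOXD1 had 13 and 0.

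The effect of NTP was tested in each genotype in 1 model of all 18 libraries (edgeR quasi-likelihood F test, Benjamini-Hochberg adjustment over 14907 genes with 10 or more counts, threshold 0.05). None of the 27 HOX genes tested passed in any genotype, where 0% of all genes passed in each. At an unadjusted p under 0.05 there were 2 HOX genes in hNABP2 KO, 0 in hNABP1 KO and 0 in WT, out of 359, 927 and 163 genes of the whole table, and DESeq2 called 0 genes in each. The 2 were HOXD11, with 0, 0 and 8 counts with NTP against 0 in each library without (edgeR adjusted p = 1), and HOXD1, with 0, 0 and 5 against 0 in each (edgeR adjusted p = 1). The median log2 fold change of the HOX genes, with NTP over no NTP, was 0.05 in hNABP2 KO, 1.71 in hNABP1 KO and 2.56 in WT, beside 0.17, 1.70 and 0.93 over all genes tested. The WT median rested on repeat 3 and on the count filter: it was 0.00 without WT repeat 3 with NTP, and with no count filter it was 1.43, beside 1.36 over all genes. The hNABP1 KO median was likewise 0.00 without the repeat 3 library with NTP of that genotype. Over all genes the medians without these libraries were -0.0015 in WT and 0 in hNABP1 KO.

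Whether loss of hNABP2 goes with a change in HOX transcription was asked with the libraries with NTP. None of the 23 HOX genes with 10 or more counts passed in hNABP2 KO against WT by edgeR, where 0% of the 13447 genes tested passed. There were 0 HOX genes and 41 genes in all at an unadjusted p under 0.05, and DESeq2 called 0 genes. The HOX log2 fold changes ran from -2.44 (HOXC13) to 2.23 (HOXB2), with SEs of 1.44 to 1.79, so that none exceeded 2 SEs. They were positive for 10 genes and negative for 13, with a median of -0.35 beside 0.07 over all genes. Of the most counted genes, HOXD8 lay at -0.35 (SE 1.44, edgeR adjusted p = 1) and HOXA4 at -0.54 (SE 1.54, edgeR adjusted p = 1). Both rested on the repeat 3 libraries: without WT repeat 3 the values were 0.73 and 3.74, beside a median of 2.02 over all genes.

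In hNABP1 KO against WT, again none of the 23 HOX genes passed by edgeR, where 0% of all genes passed. At an unadjusted p under 0.05 there was 1 HOX gene out of 163 in all, and DESeq2 called 0 genes. It was HOXB13, a gene of the prostate and tail, with 0 counts in each hNABP1 KO library against 0, 0 and 9 in WT (edgeR adjusted p = 0.999). The libraries labelled hNABP2 KO held 0, 0 and 2. The peak list of hNABP1 KO repeat 2 nevertheless held a run-on peak inside HOXB13 (chr17:48727640-48727828, fold 2.96, -log10 q 1.6). The 0 counts of HOXB13 are therefore not an absence of run-on signal at the gene. The other HOX genes lay between -2.31 (HOXD13) and 1.03 (HOXD8, SE 1.38, edgeR adjusted p = 0.999), with 10 of the 23 positive, 13 negative and a median of -0.35 beside -0.03. HOXA4 lay at -0.47 (SE 1.54). Without the repeat 3 library labelled hNABP1 KO, HOXD8 lay at -4.61, and without WT repeat 3 HOXA4 lay at 3.82. The medians over all genes in these fits were -3.09 and 2.22. With the repeat number as a block, 16 genes of the table passed in this contrast, with 0 HOX genes among them.

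The 2 knockouts were also compared with each other. By edgeR none of the 23 HOX genes passed in hNABP2 KO against hNABP1 KO, where 0% of all genes passed. At an unadjusted p under 0.05 there were 0 HOX genes out of 248 in all, with 0 genes called by DESeq2. HOXD8 lay at -1.39 (SE 1.44, edgeR adjusted p = 1), and at 4.2 without the repeat 3 library labelled hNABP1 KO. Without that library the median over all genes was 2.96. In repeat 3, 1 library a group, HOXD8 had 43.1 CPM in hNABP2 KO (95% Poisson interval 14 to 101) and 225 CPM in hNABP1 KO (147 to 330), intervals that do not overlap but cover counting error only. The HOX median was 0.27 beside 0.12 over all genes, with 15 genes positive and 8 negative, and it was -2.45 without the repeat 3 library labelled hNABP2 KO and -0.05 without either repeat 1 or repeat 2 of hNABP1 KO. Without that repeat 3 library of hNABP2 KO the median over all genes was -1.50. The block on repeat number gave 19 genes of the table and 0 HOX genes.

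**Figure D3:**
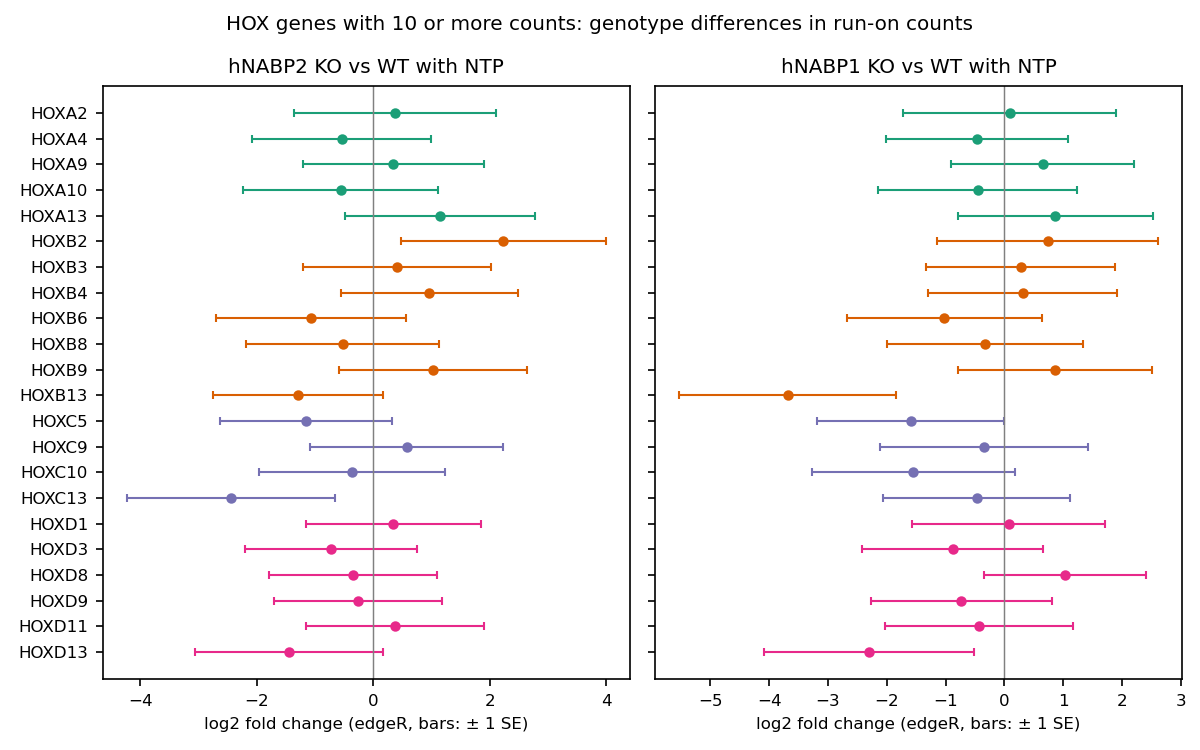
Log2 fold change of HOX genes with 10 or more counts (1 of the 23 is not drawn) in hNABP2 KO over WT (left) and hNABP1 KO over WT (right), from edgeR, with bars of 1 SE either side and colours for the clusters A to D. All bars are longer than 1 log2 unit on each side, and HOXB13 in hNABP1 KO, at 0 counts in that group, is the farthest from 0.

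hNABP2 ChIP peaks were found at HOX promoters in 3 of the 4 clusters. Each fold below is the authors' value for the peak over its local background. The 2 lists differ in scale, with a median fold of 3.21 in repeat 1 and 5.87 in repeat 2. A peak annotated within 1 kb of a start was present at 8 of the 39 HOX genes in repeat 1 (20.5%, against 27.1% of the 26473 distinct symbols of the table), at 8 in repeat 2 (20.5%, against 8.74%) and at 6 in both (15.4%, against 7.46%). The HOX genes lay below the table's share in repeat 1, which has 10068 peaks, and above it in repeat 2, which has 2832. In either repeat it was 10 (25.6%, against 28.4%). With peaks at any distance, 10 HOX genes had a peak in repeat 1 (against 28.2% of the table), 8 in repeat 2 (against 9.04%), 6 in both (against 7.72%) and 12 in either (30.8%, against 29.5%). The 6 in both repeats were HOXD8, HOXD9 and HOXD13, HOXA4 and HOXA10, and HOXB8; of the 9 HOXC genes 0 had such a peak. Of the 12 genes of paralogue groups 1 to 4, 1 had a peak within 1 kb in either repeat, against 2 of the 11 in groups 5 to 8 and 7 of the 16 in groups 9 to 13. The authors annotated each peak to 1 gene, so a peak near a HOX gene can be missing from these counts. In repeat 1 a peak inside the HOXB2 span (chr17:48543260-48543776) was annotated to HOXB-AS1.

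HOXD8 held the HOX peak with the highest significance, at chr2:176129459-176129798 in repeat 1, with a fold of 5.39 and -log10 q of 38.1. This peak covers 296 of the 300 bases of the HOXD8 sequence printed above. A second repeat 1 peak at chr2:176130016-176130668 (fold 3.44, -log10 q 12.2) overlapped the repeat 2 peak at chr2:176129912-176130627 (fold 5.77, -log10 q 5.89), which did not reach the printed window. HOXD8 was the HOX gene whose peaks had a -log10 q of at least 5 in both repeats.

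At HOXA4, repeat 1 gave peaks at chr7:27130861-27131208 (fold 4.21, -log10 q 30.7) and chr7:27130020-27130651 (fold 3.56, -log10 q 17.5), and repeat 2 gave chr7:27130179-27130459 (fold 4.49, -log10 q 2.91). The stronger repeat 1 peak covers 147 bases of the HOXA4 sequence, its upstream end, and the other peaks lie downstream in the gene. HOXA10 had peaks at chr7:27173373-27174061 in repeat 1 (fold 3.18, -log10 q 13.7) and chr7:27173847-27174194 in repeat 2 (fold 4.58, -log10 q 2.26), both just downstream of the sequence shown. HOXB8 had a narrow peak in both, chr17:48613113-48613282 in repeat 1 (fold 3.51, -log10 q 6.03) and chr17:48613070-48613260 in repeat 2 (fold 5.99, -log10 q 4.01). In repeat 1 the peaks at HOXD9 and HOXD13 had lower folds than those at the other 4 genes. HOXD9 had chr2:176123012-176123221 in repeat 1 (fold 2.45, -log10 q 4.11) and chr2:176122974-176123328 in repeat 2 (fold 4.3, -log10 q 1.5), and HOXD13 had chr2:176093053-176093308 in repeat 1 (fold 1.93, -log10 q 2.82) and chr2:176092871-176093169 in repeat 2 (fold 5.06, -log10 q 3.12). The HOXD13 peaks lie downstream of the sequence shown, which has 0 bases under either peak. In all 6 genes a repeat 1 peak overlapped a repeat 2 peak.

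Among peaks at HOX genes that had peaks in 1 repeat alone, those with the largest fold, with the 2 lists ranked together, were at HOXD11 (chr2:176107757-176107977, repeat 2, fold 4.98), HOXA13 (chr7:27199778-27200290, repeat 2, fold 4.12), HOXB2 (chr17:48541753-48542007, repeat 1, fold 3.68, 1139 bases from the start), HOXB9 (chr17:48625854-48626200, repeat 1, fold 3.28) and HOXA9 (chr7:27166394-27166566, repeat 1, fold 3.02). The 1139 bases are the distance in the authors' annotation, and the HOXB2 peak lies outside the RefSeq span of the gene. The HOXA13 peak covers 249 bases of the HOXA13 window, which held 44 CG dinucleotides, the most of the HOX windows. Counting all peaks inside the cluster spans, whatever gene they were annotated to, there were 20 in repeat 1 (7 in HOXA, 7 in HOXB, 1 in HOXC and 5 in HOXD) and 8 in repeat 2 (3, 1, 0 and 4). The HOXC peak, at chr12:54017968-54018423 (fold 5.61, -log10 q 23.6), had the largest fold of the repeat 1 set; it was annotated to AC012531.2 and lies inside the overlapping spans of HOXC4, HOXC5 and HOXC6. Of the 20 repeat 1 peaks 6 (30%) overlapped a repeat 2 peak, against 22.6% of all repeat 1 peaks, and of the 8 repeat 2 peaks 6 (75.0%) overlapped a repeat 1 peak, against 80.0%.

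**Figure D4:**
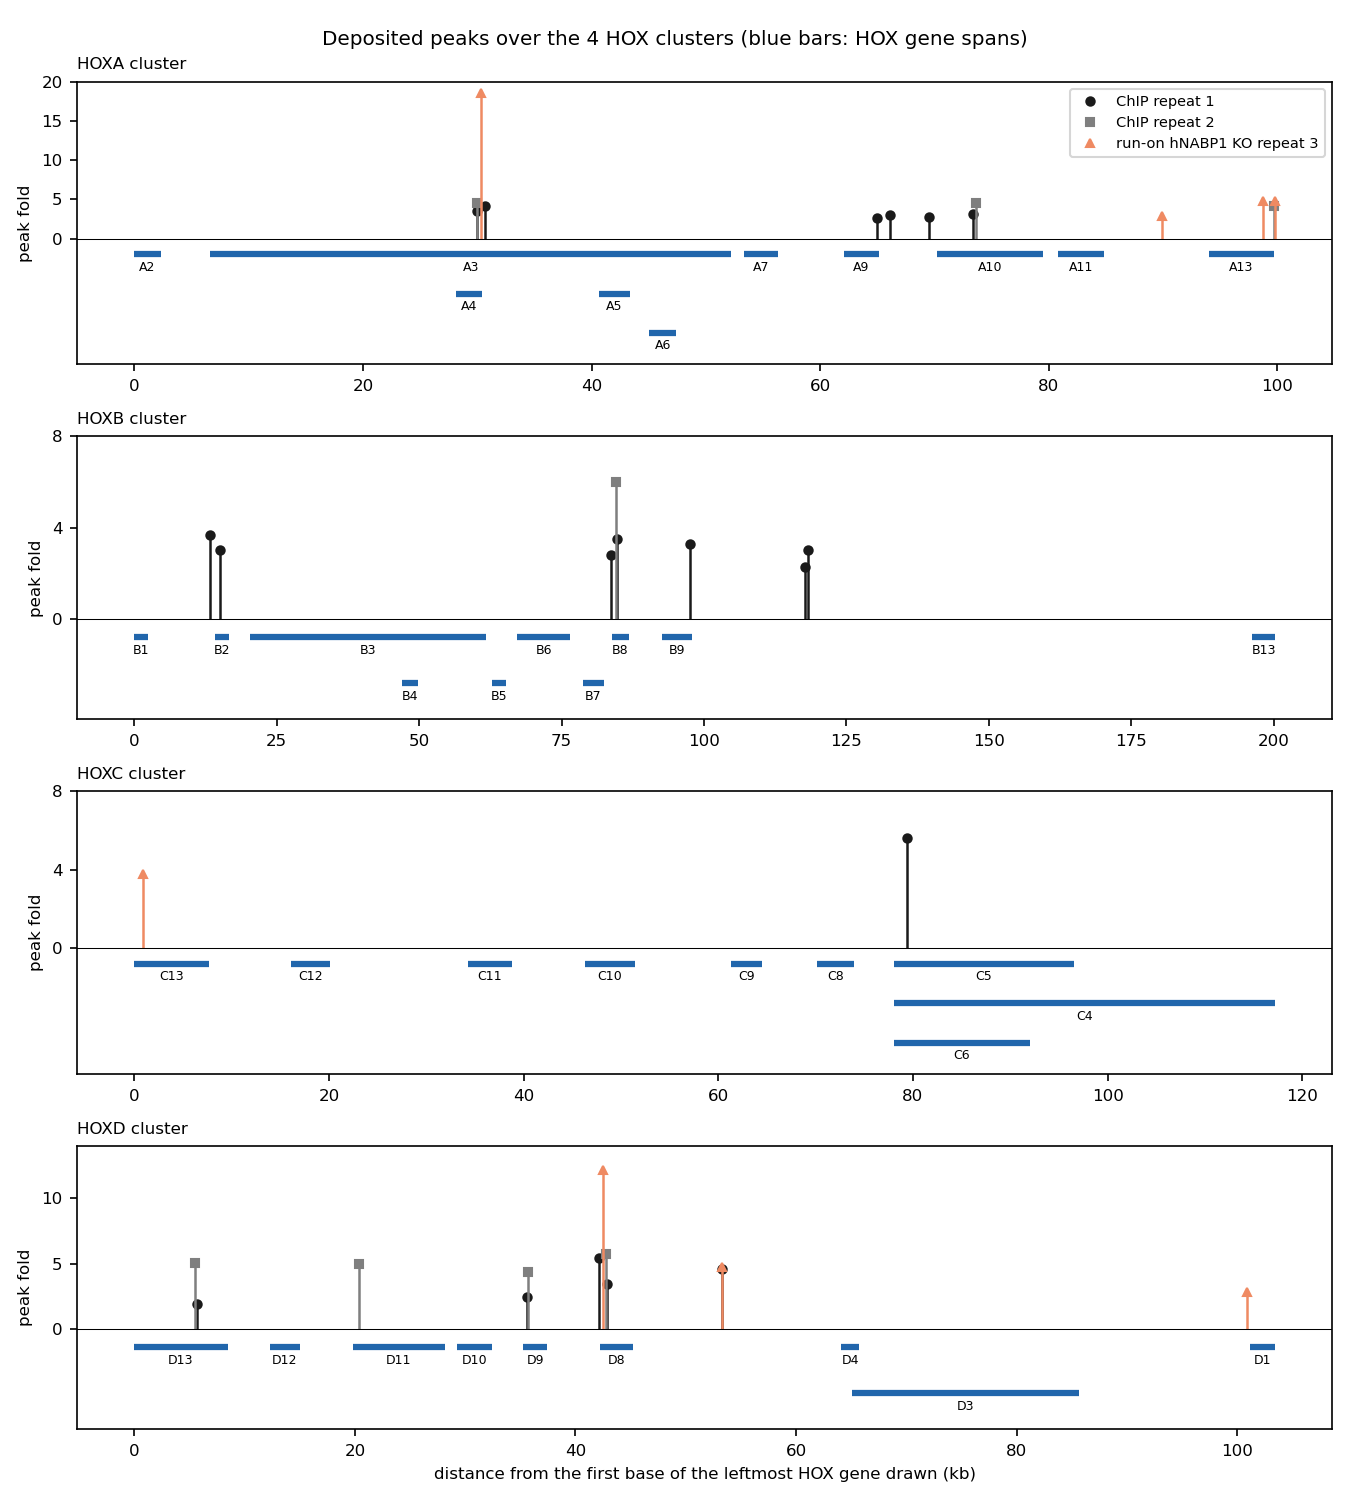
Deposited peaks over the HOXA, HOXB, HOXC and HOXD clusters, with 1 gene and the peaks at it not drawn, the distance from the first base of the leftmost HOX gene drawn in kb on the x axis and the peak's fold over local background on the y axis (linear); circles are ChIP repeat 1, squares ChIP repeat 2, triangles run-on peaks of hNABP1 KO repeat 3, and blue bars the RefSeq spans of the genes. ChIP and run-on peaks stand together at HOXA4 and HOXD8, and HOXC holds 1 ChIP peak.

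HOX genes with a promoter peak also had more run-on counts than those without, as genes of the whole table did. The median with NTP was 21 counts in the 6 HOX genes with a peak in both repeats, 19.5 in the 4 with a peak in 1 repeat and 8 in the 29 with none, beside 30, 26 and 5 over the genes of the table. HOXB6 and HOXB3, with 23 and 21 counts, led the HOX genes with no annotated ChIP peak in either repeat.

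Most run-on peaks in the clusters came from 1 library, whose list was also by far the longest. The repeat 3 library labelled hNABP1 KO had 9 peaks in the HOX spans out of 9965 in its list, while the other 8 run-on lists with NTP, of 94 to 518 peaks, had 3 between them. WT repeat 3 had more counts but 264 peaks in its list and 0 in the HOX spans, so the lists differ in more than depth and peak numbers were not compared between genotypes. In the hNABP1 KO library the largest was at HOXA4 (chr7:27130400-27130982, fold 18.5, -log10 q 32.4), followed by HOXD8 (chr2:176129618-176130317, fold 12.2, -log10 q 17.6). HOXA4 and HOXD8 were highest in counts per kb and held the leading run-on peaks. The counts per kb include the library of these run-on peaks, so those 2 measures are not independent. HOXA4 and HOXD8 also had the most significant ChIP peaks of the HOX genes in ChIP repeat 1. In ChIP repeat 2 HOXA4, with a -log10 q of 2.91, came after HOXD8 (5.89), HOXB8 (4.01) and HOXD13 (3.12). Of the 9 run-on peaks, 4 (44.4%) overlapped a ChIP repeat 1 peak, against 47.1% of the library's whole list, and of the ChIP peaks in the clusters 6 of 20 in repeat 1 (30%, against 48.1%) and 3 of 8 in repeat 2 (37.5%, against 54.9%) overlapped a run-on peak of that library. The 4 DRIP lists, of 13 to 173 peaks in hNABP2 KO and WT, had 0 peaks in the HOX spans.

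The clusters also hold non-coding RNAs, many of them antisense to a HOX gene. Of the 30 listed, 24 were in the table and 20 had a count. The list includes PRAC1, a coding gene in the HOXB cluster, which is counted here with the non-coding RNAs. Summed over the genotypes with NTP, they held 46 of the 81 counts of both kinds in repeat 1 (56.8%, 95% Clopper-Pearson interval 45.3 to 67.8), 14 of 22 in repeat 2 (63.6%, 40.7 to 82.8) and 152 of 593 in repeat 3 (25.6%, 22.2 to 29.3). Without NTP the shares were 59.5%, 54.2% and 29.0%. The intervals cover counting error only. By library with NTP, the share lay between 51.7% and 61.8% in repeat 1 and between 22.8% and 26.6% in repeat 3, while without NTP the ranges of 40% to 75% in repeat 1 and 21.1% to 47.7% in repeat 3 overlapped. HOXA10-AS had 9, 1 and 4 counts in hNABP2 KO with NTP, 4, 4 and 4 in hNABP1 KO and 3, 2 and 13 in WT, and HOXB-AS3 had 7, 4 and 7, then 1, 3 and 1, then 3, 0 and 6 in the same order. Without these 2 RNAs the shares with NTP were 35.2%, 0% and 21.0%. Since the strand setting is not known, counts of a HOX gene and of an antisense partner that overlaps it cannot be told apart.

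**Figure D5:**
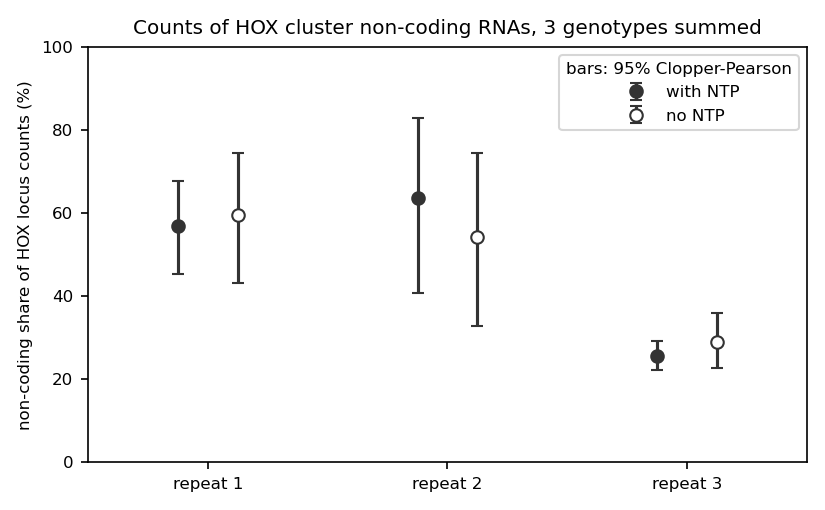
Share of the non-coding RNAs in the summed counts of HOX genes and HOX cluster non-coding RNAs, in percent on a linear axis, for repeats 1 to 3 with NTP (filled) and without (open), the 3 genotypes summed; bars are 95% Clopper-Pearson intervals. Repeats 1 and 2 lie between 54.2% and 63.6% and repeat 3 at 25.6% and 29.0%. The coding gene PRAC1 is counted with the non-coding RNAs.

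The genes that act with or on the HOX clusters gave no call in the same edgeR tests. Of the non-coding RNAs 7 were tested between genotypes, of the HOX cofactors 6 of 9, of the Polycomb and Trithorax regulators 30 of 31 and of the ParaHox and flanking homeobox genes 7 of 15, and 0 passed in either direction in any contrast. At an unadjusted p under 0.05 there was 1 regulator between genotypes, in hNABP1 KO against WT, and for NTP there were 2 cofactors and 2 regulators in hNABP1 KO and 3 regulators in WT; DESeq2 called 0 genes of the table. In hNABP2 KO against WT their median log2 fold changes were 0.37, 0.51, 0.32 and -0.45 beside 0.07 over all genes. A ChIP promoter peak in both repeats was present at 0 of 24 non-coding RNAs, 2 of 9 cofactors, 9 of 31 regulators and 0 of 15 homeobox genes, against 7.46% of the table. The cofactors were PKNOX1 (PREP1; fold 17.9 in repeat 1 and 5.77 in repeat 2) and PBX3 (2.1 and 4.68). Of the regulators the 5 with the largest repeat 1 fold were EZH2, the methyltransferase of Polycomb complex PRC2 (6.11 and 4.01), KMT2A, the Trithorax protein MLL1 (5.98 and 7.28), PHC2, a PRC1 subunit (5.74 and 10.5), PSIP1, which tethers MLL to chromatin (5.45 and 4.01), and KMT2B (4.64 and 6.09).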

How the data were processed

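Run-on signal of 18 libraries was deposited as whole-number counts by gene symbol, which the authors had not scaled. Peaks were deposited per library with a fold (ratio over local background), −log10 p and −log10 q, and in the annotated tables with 1 gene and the distance to its start. The submitters' processing notes name cutadapt 1.18, Bowtie2 2.3.5, SAMtools, MACS2 2.2.1 and hg38, without order or settings; which controls entered peak calling is not stated. Counts were tested with edgeR 4.0.16 (R 4.3.3; TMM, quasi-likelihood F test, genes with 10 or more counts over the libraries of the fit, library sizes over those genes); each SE is the log2 fold change over the root of F. The 9 libraries with NTP shared 1 model. TMM factors ran from 0.449 to 1.922 there, so log2 fold changes can differ in sign from CPM of library totals. DESeq2 1.42.0, other filters and scalings, a block on repeat number and leaving out each library were tried, and the fit was tested on simulated data. Same-number libraries with NTP correlated at 0.284 to 0.524 after group means were removed (9 pairs), others at -0.339 to 0.023. Library size also went with the repeat number, so a pairing of the samples and a shared depth cannot be told apart. Values of every library with NTP are given for the 16 HOX genes with most counts, 18 with a tie at 13. Values of 1 HOX gene are not reported here by name. The HOX genes and the lists were chosen with earlier results of these data known. The first line of each annotated table holds values of a peak and was read as column names, so that peak was not used; the annotated tables held 10055 and 2816 ChIP peaks.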

Additional observations from a re-analysis of the deposited data

Results flagged for a closer look

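In 3 of 33 comparisons (11 lists, 3 pairs of genotypes each), every library of 1 genotype moved opposite to every library of another when libraries with NTP were set against those without; none of these differences was tested. The share of counts in HOXA genes was lower with NTP in all 3 repeats of hNABP1 KO (mean difference -0.00678 percentage points) and higher in all 3 of WT (0.0142); it rests on 1 to 3 HOXA counts in each library of repeats 1 and 2 with NTP. The share of HOX cluster non-coding RNAs was higher with NTP in all 3 repeats of hNABP2 KO (0.026) and lower in all 3 of WT (-0.0313), and the same held for the HOXB non-coding RNAs alone (0.0204 in hNABP2 KO, -0.0179 in WT). The HOXB non-coding RNAs held 8, 4 and 7 counts with NTP against 1, 3 and 1 without in hNABP2 KO, and 6, 0 and 11 with NTP against 7, 1 and 3 without in WT.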

How the results depend on the processing

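Of 289 alternative values, 256 kept their direction and their side of the threshold or moved little, and 33 did not. Of the 289, 66 were counts of HOX genes called, with few genes of the table called in any fit. The log2 fold change of a gene was taken as kept if its sign and call stayed, whatever its size. A HOX median was taken as kept if it moved by less than the SD of the HOX log2 fold changes without changing sign. The tally is therefore no measure of robustness. The count of HOX genes called was 0 in all 6 contrasts under each alternative that gave a value: no count filter, DESeq2 size factors, library totals, DESeq2, the replicate block and leaving out each library (lowest 0, highest 0). filterByExpr kept 129 genes between genotypes and 211 for NTP, 0 of them HOX, and gave no value. Same-number libraries with NTP correlated and were alike in depth, and the replicate block changed no HOX call. In the 18-library fit not every same-number pair correlated above 0.1. Library totals moved the median of all genes in hNABP1 KO against WT to -0.40; relative to it the HOX median stayed at -0.32. The HOX median in hNABP2 KO against WT was 0.05 with no count filter. HOXA4 in hNABP2 KO against hNABP1 KO was 0.16 with library totals, against -0.08.

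Leaving out 1 library gave HOX medians from -2.76 to 1.8 in hNABP2 KO against WT, -3.26 to 2.4 in hNABP1 KO against WT and -2.45 to 2.96 in hNABP2 KO against hNABP1 KO, and for NTP from -1.39 to 2.75 in hNABP2 KO, 0 to 2.78 in hNABP1 KO and 0 to 3.19 in WT. HOXD8 ran from -0.81 to 0.73, -4.61 to 2.09 and -1.89 to 4.2 in the same 3 genotype contrasts, and HOXA4 from -1.44 to 3.74, -4.66 to 3.82 and -1.01 to 4.05; the extremes left out repeat 3 libraries. The medians over all genes moved as well. At the lowest and highest HOX medians they were -1.22 and 2.02 in hNABP2 KO against WT. They were -3.09 and 2.22 in hNABP1 KO against WT, and -1.50 and 2.96 in hNABP2 KO against hNABP1 KO. Without the 2 ribosomal RNA genes RNA45S5 and RNA28S5, the HOX share of hNABP1 KO without NTP was 0.0994%, against 0.0934% ± 0.00344 (SD, n = 3).

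With peaks of -log10 q of at least 5, HOX genes with a promoter peak in both ChIP repeats numbered 1. The share over all genes at this cutoff was not computed, and the ChIP repeat 2 list had a median -log10 q of 4.54. At the same cutoff cluster peaks in ChIP repeat 2 numbered 1. Run-on peaks in the clusters numbered 3 in hNABP1 KO repeat 3 and 1 in the other 8 lists. Without HOXA10-AS and HOXB-AS3 (chosen after seeing the data), non-coding shares were 35.2%, 0% and 21.0% with NTP in repeats 1 to 3, and 34.6% and 17.5% in repeats 1 and 3 without. Leaving out 1 library gave 23.5% to 40.5% in repeat 3 without NTP. In these last cases the cause was not tested. With 5272 to 19581 counts in repeats 1 and 2, a count of 0 there allows up to 153 to 569 CPM (3 counts of the library total), above the level of most HOX genes in repeat 3.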
